A study of Mus musculus with 2 samples.

Results

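Pou5f1, Sox2, Nanog and Klf4 encode the core transcription factors of pluripotency, and the nucleosomes called around these 4 genes were compared between embryonic stem (ES) cells given ethanol and ES cells given tamoxifen. A locus was a fixed window on the mm9 build, and its members were the called nucleosomes whose centre, the midpoint of start and end, lay inside it. The windows were chr17:35620000-35660000 for Pou5f1, chr3:34540000-34670000 for Sox2 with its distal control region, chr6:122640000-122690000 for Nanog and chr4:55465000-55560000 for Klf4 with its distal enhancers, 315 kb in all. They held 260 of the 1300009 nucleosomes called with ethanol and 273 of the 1424844 called with tamoxifen. Membership rested on position alone and used no measured value.

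Both groups were mouse ES cells of genotype Brg1fl/fl that carry Actin-CreER, a Cre recombinase fused to an estrogen receptor domain under an actin promoter. The ethanol group received ethanol and the tamoxifen group tamoxifen at 0.8 µM, each over 24 hours, and both were then kept in plain serum-LIF medium for a further 48 hours. Tamoxifen lets the recombinase enter the nucleus and excise floxed DNA, here in Brg1 (Smarca4), the ATPase of the esBAF chromatin remodeling complex. Each group was 1 library of DNA from the mononucleosome band of a 12 U micrococcal nuclease (MNase) digest. The recombinase and the floxed alleles were present in both groups, and no group here received tamoxifen without the recombinase, so tamoxifen itself and the excision it induces cannot be told apart. Excision of Brg1 was not checked here, and the groups are named by treatment throughout. No expression was measured, so the label of ES cells was not checked against marker genes.

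Pou5f1 (Oct4), a POU-domain factor, and Sox2, an HMG-box factor, bind DNA side by side at composite sites in the enhancers and promoters of many ES cell genes, including their own. Nanog is a homeodomain factor and Klf4 a zinc-finger factor that binds GC-rich motifs. In ES cells the 4 genes are active, and their regulatory elements are known as sites of open chromatin bound by these same factors and by esBAF. MNase digests linker DNA and leaves the DNA wrapped around histones, so a called nucleosome marks a position that was protected in a population of nuclei, while DNA with no call may be free of nucleosomes, variably occupied, or below the cutoffs of the caller.

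The promoters of the 4 genes were searched for 3 short motifs, and they differ in which they hold. No homeodomain motif for Nanog was among the 3, and whether Klf4 binds the GC boxes found was not tested. RefSeq start sites on GRCm38.p6 were used, because they give the letters of the promoters, but they are on another build than the calls and were not placed on them. Each line covers positions -170 to -31 from a start site on the strand of the gene. Capitals mark 3 motifs searched on both strands: CATTGTNATGCAAA, a Sox site beside an octamer core; ATGCAAA, the octamer core alone, which lies inside the first; and GGGCGG, the GC box. For Pou5f1 the upstream and for Nanog the downstream of 2 listed start sites is shown. The other Pou5f1 promoter in the table holds none of the 3 motifs.

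Nanog: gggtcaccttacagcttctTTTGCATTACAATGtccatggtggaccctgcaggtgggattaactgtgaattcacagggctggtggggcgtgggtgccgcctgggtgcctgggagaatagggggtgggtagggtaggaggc
Sox2: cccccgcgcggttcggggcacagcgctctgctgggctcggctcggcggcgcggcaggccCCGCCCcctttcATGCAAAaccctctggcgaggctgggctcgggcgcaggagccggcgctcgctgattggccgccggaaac
Pou5f1: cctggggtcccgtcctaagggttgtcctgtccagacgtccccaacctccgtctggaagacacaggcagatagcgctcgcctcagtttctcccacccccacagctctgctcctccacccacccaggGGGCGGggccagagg
Klf4: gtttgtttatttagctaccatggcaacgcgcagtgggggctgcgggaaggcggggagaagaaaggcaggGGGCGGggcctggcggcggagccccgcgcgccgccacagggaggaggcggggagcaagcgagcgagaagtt

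The composite motif was found in 2 of 32851 RefSeq promoters of 300 bases, and both are start sites of Nanog. These 2 promoters overlap and hold the same site, which lies at -151 to -138 of the start site shown. Only the N of the pattern was free, so composite sites with other letters were missed. The count therefore does not tell how common composite sites are. The octamer core alone was in 4.63% of all promoters and occurs in Sox2 at -99 to -93. The GC box was in 35.7% of all promoters and stands within the printed stretches of Sox2, Pou5f1 and Klf4. GC content of the printed stretches was 58.6% for Nanog, 66.4% for Pou5f1, 68.6% for Klf4 and 75.7% for Sox2. A match is a description of letters and not a measured binding site.

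The number of called nucleosomes at these loci differed little between the libraries. The Pou5f1 window held 48 ethanol calls and 49 tamoxifen calls, with 95% Poisson intervals of 35.4 to 63.6 and 36.3 to 64.8. For Sox2 the numbers were 92 (74.2 to 112.8) and 103 (84.1 to 124.9). Klf4 had 78 calls (61.7 to 97.3) with ethanol and 85 (67.9 to 105.1) with tamoxifen. Nanog had 42 (30.3 to 56.8) and 36 (25.2 to 49.8), and was the locus of the 4 with fewer calls in the tamoxifen library, while the whole tamoxifen list is 9.6% longer. Since a group is 1 library, nothing can be set against the spread between replicates, no p-value is given, and the intervals in the text cover counting error only. The depth in sequencing reads behind the lists is unknown.

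Per kb, the Pou5f1 window had the highest density of the 4 in each library, at 1.2 calls per kb with ethanol and 1.23 with tamoxifen. Over the autosomes the density was 0.522 calls per kb with ethanol and 0.572 with tamoxifen. The length used there runs to the last call of each chromosome, so long sequence without calls lowers the autosomal density. Nanog had 0.84 calls per kb with ethanol and 0.72 with tamoxifen, Klf4 0.821 and 0.895, and Sox2 0.708 and 0.792. The Poisson intervals of these 3 loci overlap each other in both libraries, so their order is not settled. The interval of Pou5f1 with ethanol, 0.885 to 1.59, lay above that of Sox2, 0.571 to 0.868, but overlapped those of Nanog and Klf4. All 8 intervals lay above the autosomal density of their library except that of Nanog with tamoxifen, 0.504 to 0.997. Denser autosomal windows of the same length, with at least the median scaled count, give another background. With ethanol and tamoxifen their median counts were 31 and 34 for Pou5f1 and 100 and 109 for Sox2. For Nanog they were 38 and 42, and for Klf4 73 and 80. Sox2 lay below both medians, Klf4 above both, and Nanog above with ethanol only. Pou5f1 lay above both, but 95% of such windows reached up to 66 and 69.

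**Figure D1:**
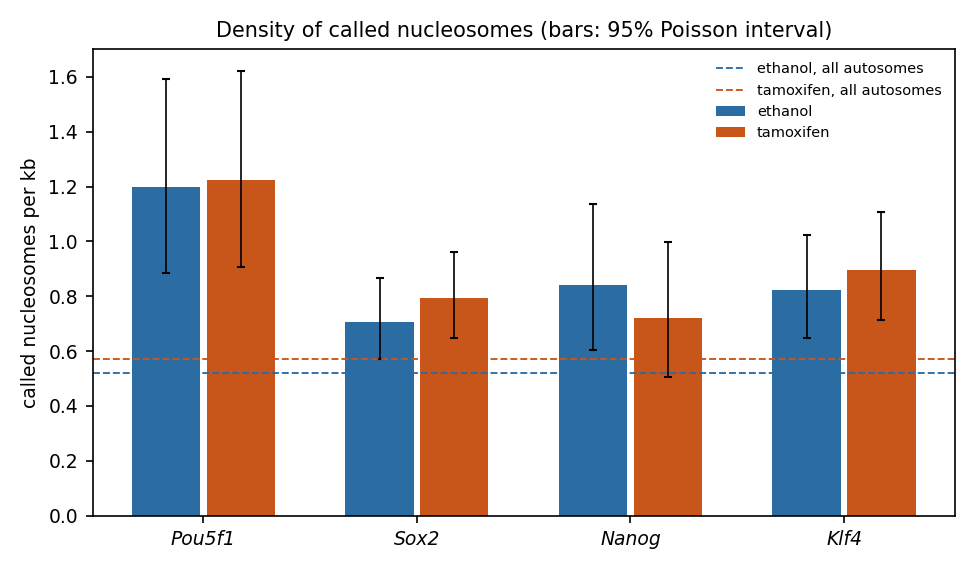
Called nucleosomes per kb (bars, with 95% Poisson intervals) at the 4 loci in the ethanol and the tamoxifen library, with the autosomal density of each library as a dashed line. Pou5f1 stands highest at 1.2 and 1.23 calls per kb, and Nanog is lower with tamoxifen (0.72) than with ethanol (0.84), with overlapping intervals.

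Scaled to the length of the lists, none of the 4 windows differed by more than 1.5-fold between the libraries. The log2 ratio of tamoxifen over ethanol was -0.10 at Pou5f1 (exact Clopper-Pearson interval -0.71 to 0.50), 0.03 at Sox2 (-0.39 to 0.45), -0.01 at Klf4 (-0.47 to 0.45) and -0.35 at Nanog (-1.04 to 0.32). All 4 intervals include 0. Among autosomal windows as long as the Nanog window with at least the median scaled count, 0.461% were over 1.5-fold lower and 0.886% over 1.5-fold higher with tamoxifen. The corresponding shares were 0.859% and 1.42% at the length of the Pou5f1 window, 0.0461% and 0.161% at that of Klf4, and 0.0105% and 0.0525% at that of Sox2. The middle 90% of these denser windows of the Nanog length had log2 ratios of -0.34 to 0.37, so that Nanog lay just outside its lower end. Over all 4 loci together the log2 ratio was -0.06 (-0.31 to 0.19).

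Within the windows, calls were counted in successive stretches of 10 kb. Of the 32 stretches, 28 had at least the median scaled count of autosomal 10 kb windows and a full length. Of these, 2 were over 1.5-fold lower with tamoxifen and 0 over 1.5-fold higher. The shares were 10.1% and 9.2% for the autosomal 10 kb windows that reached this count. Past the limit in either direction were 19.3% of those autosomal windows, so the loci do not stand above the background. The lower stretch at Pou5f1, chr17:35640000-35650000, had 16 ethanol calls and 10 tamoxifen calls, a scaled fold of 0.570 (0.231 to 1.34). The lower stretch at Nanog, chr6:122640000-122650000, had 9 ethanol calls and 4 tamoxifen calls, a scaled fold of 0.406 (0.0913 to 1.45). Both intervals include 1. The other Nanog stretches had 10 and 9, 5 and 4, 9 and 10, and 9 and 9 calls with ethanol and tamoxifen, so the shortfall at Nanog was mostly in the first 10 kb.

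At Pou5f1 the stretch after the lower one went the other way, with 14 ethanol calls and 18 tamoxifen calls. At Sox2 the stretches held 2 to 13 ethanol calls and 3 to 12 tamoxifen calls. The sparsest were chr3:34550000-34560000 with 2 and 3 calls and chr3:34560000-34570000 with 2 and 5, a scaled fold of 2.28 (0.373 to 24.0). At Klf4 the densest stretch, chr4:55475000-55485000, had 15 calls in each library, and the sparsest, chr4:55545000-55555000, had 1 and 3, a scaled fold of 2.74 (0.220 to 143.7). These sparse stretches were under the median scaled count and are not among the 28. The densest and the sparsest stretch of Klf4 were thus the same in both libraries.

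**Figure D2:**
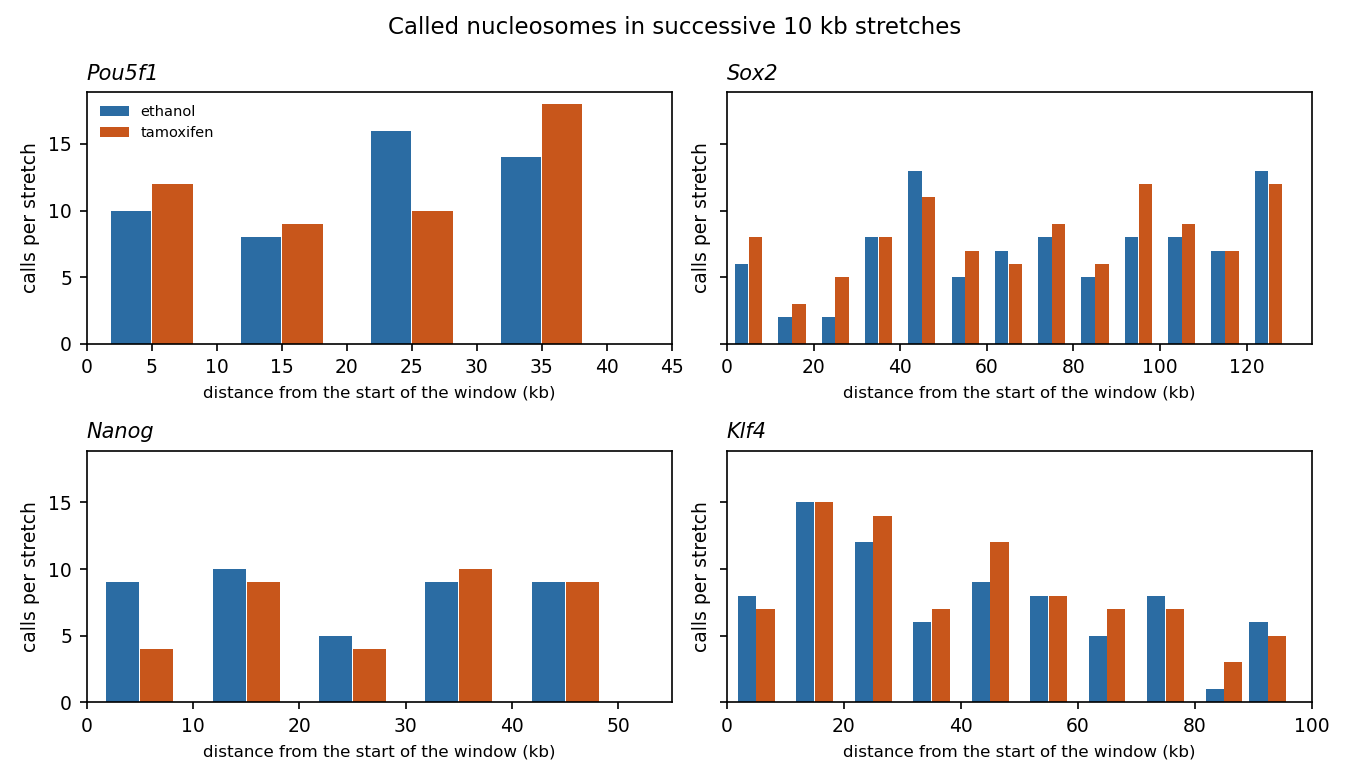
Number of called nucleosomes in successive 10 kb stretches of each window (the last one of Klf4 is 5 kb long), by distance from the start of the window in kb, with ethanol and tamoxifen bars side by side. The third stretch of Pou5f1 (16 and 10 calls) and the first of Nanog (9 and 4) are the 2 past 1.5-fold among the 28 compared, the second of Klf4 has 15 calls in each library, and the third of Sox2 (2 and 5) and the ninth of Klf4 (1 and 3) held too few calls to be compared.

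The authors' score, whose definition is not given in the sources used here, ranks calls within a list. It ran from 50.1 to 3250 in both lists with a median of 86. At Pou5f1 the median score was 89.9 with ethanol (distribution-free 95% interval 74.4 to 126.6) and 83.6 with tamoxifen (67.5 to 108.1). At Sox2 the medians were 86.3 (74.1 to 99.2) and 95.1 (82.7 to 101.6), and at Klf4 90.5 (78.9 to 114.9) and 89.3 (81.5 to 101.3). At Nanog they were 90.7 (85.1 to 132.7) and 102.2 (92.7 to 112.1). Of the Nanog calls, 27 of 42 with ethanol and 26 of 36 with tamoxifen were at or above the median of their list. The typical call at these loci therefore scored near the middle of its list, somewhat above it at Nanog with tamoxifen, where the interval did not include 86.

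The strongest call of the 4 loci was the same nucleosome in both libraries and lay in the Pou5f1 window. It spanned chr17:35650161-35650261 with ethanol, with a score of 1525.4, and chr17:35650161-35650251 with tamoxifen, with a score of 1215.4. Of the calls in its list, 99.9% scored lower than the ethanol call and 99.8% lower than the tamoxifen call, and the centres were 5 bp apart. The next in rank at Pou5f1 with ethanol were chr17:35622851-35622951 (score 548.4) and chr17:35627371-35627501 (424.1), each 10 bp from a tamoxifen call. With tamoxifen they were chr17:35625031-35625141 (470.4) and chr17:35640751-35640841 (403.6), 5 and 10 bp from an ethanol call. All the leading calls of Pou5f1 thus had a partner in the other list.

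Nanog also had 1 dominant nucleosome in both libraries. It was called at chr6:122656071-122656191 with ethanol, score 762.3, and at chr6:122656091-122656181 with tamoxifen, score 679.4, with centres 5 bp apart. In each library 2 further calls preceded it at short spacing. The second strongest Nanog calls overlapped, chr6:122678581-122678731 with ethanol (294.4) and chr6:122678631-122678731 with tamoxifen (323.8), but their centres were 25 bp apart. The third was chr6:122674531-122674621 with ethanol (246.4), 10 bp from a tamoxifen call, and chr6:122662831-122663041 with tamoxifen (280.3), 50 bp from an ethanol call.

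Sox2 and Klf4 had no call of comparable rank. At Sox2 the highest ethanol score was 323.8, at chr3:34661871-34661971, with a tamoxifen call 5 bp away. It was followed by chr3:34656801-34656921 (302.9) and chr3:34583471-34583571 (297). The highest tamoxifen scores at Sox2 were 464.7 at chr3:34586931-34587131, 455.7 at chr3:34642131-34642251 and 345.7 at chr3:34580081-34580171, with ethanol calls 45, 0 and 5 bp away. At Klf4 the highest ethanol scores were 336.3 at chr4:55516201-55516291, 245.5 at chr4:55513431-55513551 and 220.9 at chr4:55477901-55478001, each with a tamoxifen call 5 to 15 bp away. With tamoxifen they were 327.3 at chr4:55481321-55481451, 263.7 at chr4:55482411-55482501 and 223.1 at chr4:55466881-55467011, with ethanol calls 20, 10 and 30 bp away.

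**Figure D3:**
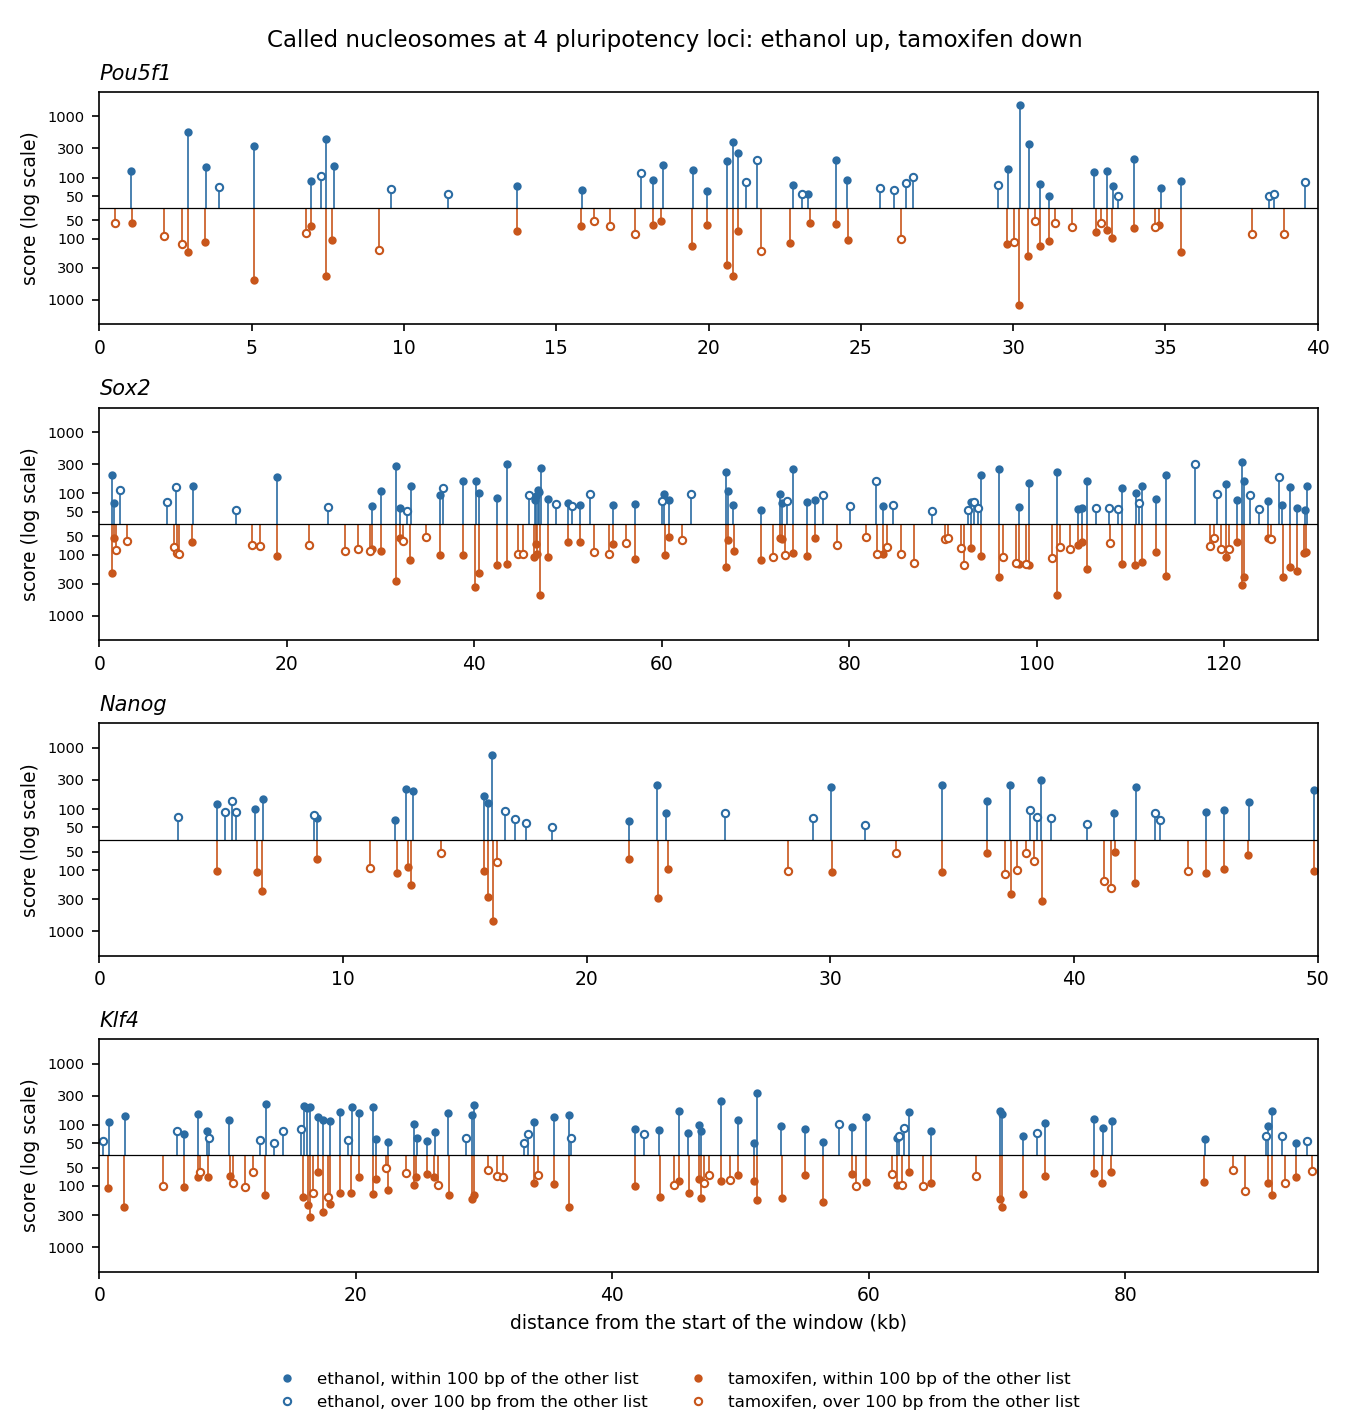
Every called nucleosome of the 4 windows by distance from the start of the window (kb), ethanol upward and tamoxifen downward, with stem length giving the authors' score on a log scale and open circles marking calls over 100 bp from any call of the other list. The tallest stems, 1525.4 and 1215.4 at Pou5f1 and 762.3 and 679.4 at Nanog, face each other, and the open circles reach 302.9 at most, at Sox2.

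Shared positions made up 45.7 to 51.3% of the ethanol calls at Pou5f1, Sox2 and Klf4, close to the autosomal share, and 23.8% at Nanog. A call was taken as shared when the centre of the nearest call of the other list was within 20 bp. Of the ethanol calls, 23 of 48 at Pou5f1 (47.9%, Wilson interval 34.5 to 61.7%), 42 of 92 at Sox2 (45.7%, 35.9 to 55.8%) and 40 of 78 at Klf4 (51.3%, 40.4 to 62.1%) were shared, against 44.4% of all autosomal ethanol calls. At Nanog 10 of 42 were shared, which is 23.8% (13.5 to 38.5%). Of the tamoxifen calls, 46.9% were shared at Pou5f1 (33.7 to 60.6%), 40.8% at Sox2 (31.8 to 50.4%), 47.1% at Klf4 (36.8 to 57.6%) and 27.8% at Nanog (15.8 to 44.0%), against 40.5% of all autosomal tamoxifen calls. The interval of Nanog excludes the autosomal share with ethanol and includes it with tamoxifen. Centres were identical in 3 pairs at Pou5f1, 5 at Sox2, 3 at Nanog and 7 at Klf4, which is 5.43 to 8.97% of the ethanol calls of a locus, against 7.34% of autosomal ethanol calls and 6.7% of autosomal tamoxifen calls. Both directions count the same 10 pairs, so they are not separate evidence. Nanog was singled out after the values of the 4 loci had been seen.

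Over the autosomes 55.7% of the ethanol calls scored 86 or more were shared, against 32.7% of the weaker ones, and the scores of the Nanog calls were not low. At the mix of scores of the Nanog calls, autosomal calls were shared in 48.1% of cases with ethanol and 45.1% with tamoxifen. At the mixes of Pou5f1, Sox2 and Klf4 the autosomal shares with ethanol were 47.1%, 44.6% and 45.2%. Among Nanog calls scored 86 or more, 9 of 27 with ethanol and 9 of 26 with tamoxifen were shared, 33.3% and 34.6%, where the autosomal shares were 55.7% and 53.0%. Among the weaker Nanog calls 1 of 15 and 1 of 10 were shared. Of the stronger ethanol calls, 30 of 44 were shared at Klf4 (68.2%), 17 of 27 at Pou5f1 (63.0%) and 23 of 46 at Sox2 (50%). Of the stronger tamoxifen calls, 49.0% were shared at Klf4, 60.9% at Pou5f1 and 48.3% at Sox2. Sox2 was thus also under the autosomal shares of stronger calls in both libraries, and Klf4 with tamoxifen. Autosomal windows as long as the Nanog window with at least the median scaled count were set beside it. Their middle 90% had ethanol shares of 30 to 60%, with a median of 44.6%. Their tamoxifen shares were 26.9 to 54.8%, with a median of 41.0%. Nanog lay below the first range and inside the second.

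In every 10 kb stretch of Nanog the ethanol share was under the autosomal 44.4%. A stretch held only 5 to 10 ethanol calls, and no interval was computed per stretch. From the first to the last 10 kb stretch, 2 of 9, 3 of 10, 0 of 5, 2 of 9 and 3 of 9 ethanol calls were shared. The stretches split the same 10 shared calls, so they are not separate evidence. Pou5f1, Sox2 and Klf4 each had stretches under 44.4% as well, such as 4 of 16 in the third of Pou5f1, and each also had stretches above it. The share of autosomal 10 kb windows under 44.4% was not computed. With the window extended by 10 kb on both sides, an alternative chosen after the values had been seen, the ethanol share was 27.6%. The extended window contains the same 42 calls, so this share is not separate evidence and does not describe the flanks by themselves. At 40 bp, 15 of the 42 Nanog calls had a partner (35.7%, against 57.0% over the autosomes), and at 80 bp 23 did (54.8%, against 64.3%). Of the 36 tamoxifen calls at Nanog, the same 15 pairs are 41.7% at 40 bp, against 52.1% over the autosomes, and the 23 at 80 bp are 63.9%, against 58.7%. At 80 bp Nanog was thus below the autosomal share in the ethanol direction and above it in the tamoxifen direction, and part of the unshared Nanog calls had a call of the other list 25 to 80 bp away.

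**Figure D4:**
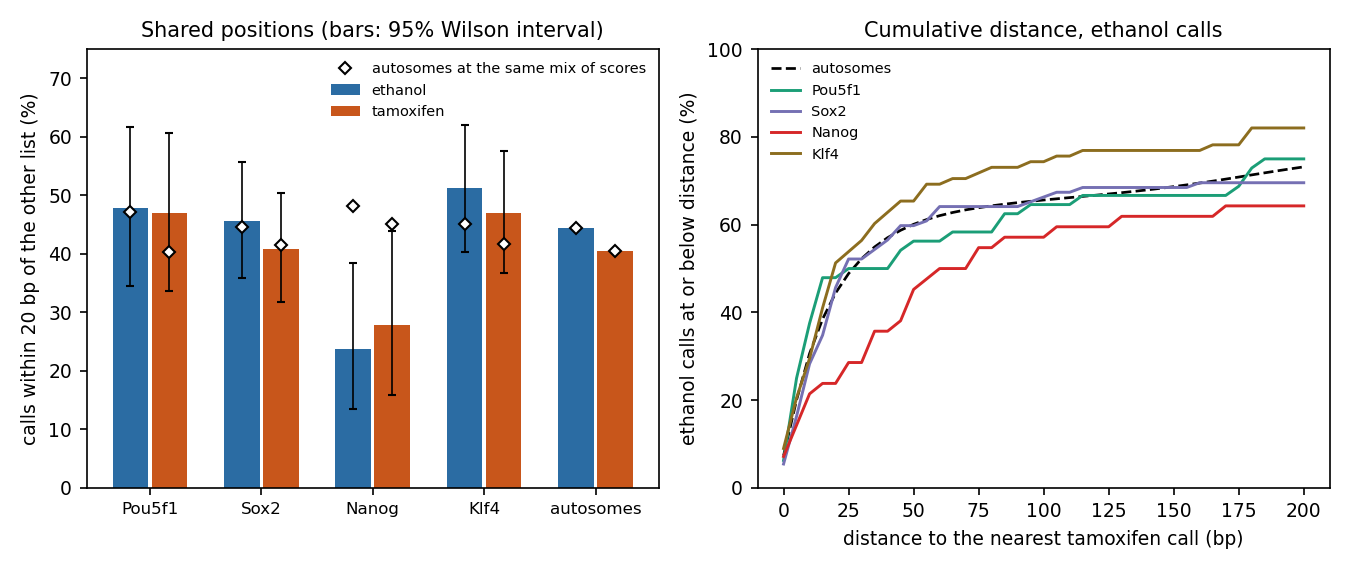
Left, share of calls within 20 bp of a call of the other list at each locus and over the autosomes (bars, with 95% Wilson intervals), with the autosomal share at the same mix of scores as diamonds. Right, cumulative share of ethanol calls by distance to the nearest tamoxifen call in bp, where the Nanog curve (23.8% at 20 bp, 54.8% at 80 bp) runs below the autosomal curve (44.4% and 64.3%).

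How far the positions lay from each other was read from pairs, an ethanol and a tamoxifen call that were each the nearest to the other and at most 80 bp apart. There were 28 pairs at Pou5f1, 59 at Sox2, 57 at Klf4 and 23 at Nanog. The centres of a pair were 25 to 80 bp apart in 5 of 28 pairs at Pou5f1 (17.9%), 17 of 59 at Sox2 (28.8%), 17 of 57 at Klf4 (29.8%) and 13 of 23 at Nanog (56.5%), against 30.7% of the autosomal pairs. The other 10 of the 23 Nanog pairs are those already counted as shared, so the 56.5% is not separate evidence, and no interval was computed for it. The median distance within a pair was 10 bp at Pou5f1, 15 bp at Sox2, Klf4 and the autosomes, and 25 bp at Nanog. Calls lie on a grid of 10 bp, so distances of a few bp cannot be resolved.

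Direction was mixed. At Nanog the tamoxifen centre lay at the higher coordinate in 14 pairs, at the lower in 6 and at the identical place in 3, with a median of 5 bp. Of its 13 wider pairs, 8 pointed to higher and 5 to lower coordinates. Examples are the ethanol centre 122662886 with the tamoxifen centre 122662936, 50 bp higher, at scores of 244.1 and 280.3, and the pair 122677376 and 122677426, also 50 bp apart, at 246.1 in each list. The pair 122652871 and 122652796 differed by 75 bp in the other direction. At Sox2 the tamoxifen centre was higher in 23 pairs and lower in 31, at Klf4 in 23 and 27, and at Pou5f1 in 13 and 12. Over all 4 loci 73 pairs pointed to higher and 76 to lower coordinates, with 18 identical, and over the autosomes 44.3% pointed each way and 11.4% were identical.

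**Figure D5:**
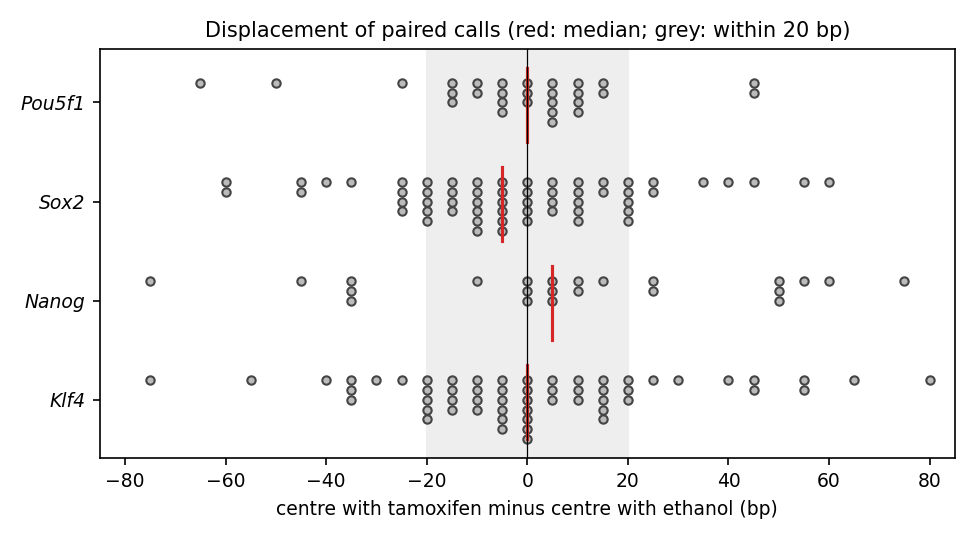
Centre with tamoxifen minus centre with ethanol, in bp, for each pair of calls at most 80 bp apart (circles, stacked), with the median in red and the 20 bp limit shaded. Of the 23 Nanog pairs 13 lie outside the shaded band, against 5 of 28 at Pou5f1.

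Calls over 100 bp from any call of the other list had median scores of 65.3 to 73.9 at the 4 loci with ethanol and of 78.9 to 95.1 with tamoxifen, against autosomal medians of 70.7 and 70.9 for such calls. With ethanol they numbered 17 of 48 at Pou5f1, 31 of 92 at Sox2, 18 of 42 at Nanog and 20 of 78 at Klf4, against 34.4% of autosomal ethanol calls. These are shares of 35.4%, 33.7%, 42.9% (Wilson interval 29.1 to 57.8%) and 25.6% (17.3 to 36.3%). With tamoxifen they numbered 18 of 49, 43 of 103, 12 of 36 and 27 of 85, shares of 36.7%, 41.7%, 33.3% and 31.8%, against 40% of autosomal tamoxifen calls. None of the 4 loci therefore differed from the background beyond the counting intervals by this measure. The lists hold only calls past the cutoffs, so a call in 1 list alone is not by itself a nucleosome gained or lost.

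The strongest unpartnered call of the 4 loci was in the Sox2 window with ethanol. It lay at chr3:34656801-34656921, scored 302.9, above 96.4% of its list, and had its nearest tamoxifen call 1670 bp away. The next at Sox2 with ethanol were chr3:34665821-34665941 (184.6, nearest call 370 bp away) and chr3:34622781-34622871 (157.7, 105 bp). With tamoxifen the strongest at Sox2 were chr3:34632201-34632321 (149.4, 470 bp), chr3:34638791-34638911 (142.7, 380 bp) and chr3:34626841-34626991 (138.4, 1875 bp). The ethanol call with a score of 302.9 was the one leading call of the 4 loci, among the 3 highest of each list, that had no partner within 100 bp.

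At Nanog the strongest unpartnered calls were chr6:122645371-122645471 with ethanol (137.9, nearest call 600 bp away) and chr6:122681451-122681591 with tamoxifen (195.6, 120 bp). The ethanol one lay in the stretch with 9 and 4 calls. At Pou5f1 an ethanol call at chr17:35641531-35641681 (197.7) and a tamoxifen call at chr17:35641661-35641781 (156.3) were the strongest of their lists and each other's nearest call, 115 bp apart. At Klf4 they were chr4:55522591-55522691 with ethanol (104.5, 1080 bp) and chr4:55482771-55482871 with tamoxifen (152, 165 bp). Every unpartnered call at Klf4 thus scored 152 or less.

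Long gaps without a call were compared next, a gap being the distance from a centre to the next in the same list. Gaps over 2000 bp numbered 4 with each treatment at Pou5f1, 8 with each at Nanog and 10 with each at Klf4, while Sox2 had 23 with ethanol and 16 with tamoxifen. As shares of the gaps these are 8.51 and 8.33% at Pou5f1, 19.5 and 22.9% at Nanog, 13.0 and 11.9% at Klf4, and 25.3 and 15.7% at Sox2, against 23.6% of autosomal gaps with ethanol and 21.8% with tamoxifen. The median gap at Pou5f1 was 440 bp in the ethanol list and 567.5 bp in the tamoxifen list. In the same order it was 990 and 920 bp at Sox2, 780 and 820 bp at Nanog and 780 and 815 bp at Klf4. Over the autosomes it was 820 and 780 bp.

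The longest gap at Nanog was in the tamoxifen list and began just after the dominant nucleosome. It reached from centre 122656301 to centre 122661716, which is 5415 bp, and held 4 ethanol calls with scores of 50.9 to 92. With ethanol the longest gap in this region was 3180 bp, from 122658571 to 122661751. No call of either library lay between 122658571 and 122661716. The second tamoxifen gap at Nanog, 4915 bp from 122663346 to 122668261, held 1 ethanol call of score 87.5. The longest ethanol gap, 3625 bp from 122665671 to 122669296, held 1 tamoxifen call of score 102.8. The 4 ethanol calls after the dominant nucleosome were also the longest series at Nanog called in 1 library alone. Sox2 had a series of 4 as well, in the tamoxifen list, from centre 34630216 to 34632261 at scores of 54.5 to 149.4. How often such series occur over the autosomes was not computed.

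At Pou5f1 the longest tamoxifen gap was 4540 bp, from 35629171 to 35633711, with 2 ethanol calls of score up to 64.1 inside. The next was 3495 bp, from 35646316 to 35649811, with 3 ethanol calls of scores 74.4 to 101.3. With ethanol the longest were 2885 bp (35655526 to 35658411) and 2775 bp (35646716 to 35649491). The last of these was empty in both libraries and ended before the strongest nucleosome of the locus.

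Klf4 had the longest gap of the 4 loci, and it was of the same length in both libraries. It measured 7240 bp in each, between the ethanol centres 55543931 and 55551171 and between the tamoxifen centres 55543896 and 55551136. Between 55543931 and 55551136, 7205 bp, neither list had a call. A second empty region common to both ran from 55501801 to 55506741, 4940 bp. At Sox2 the longest gaps were 5515 bp with ethanol (34558921 to 34564436, with 2 tamoxifen calls inside) and 6350 bp with tamoxifen (34549926 to 34556276, with 2 ethanol calls inside). The longest region of Sox2 with no call in either list was 4600 bp, from 34549951 to 34554551. Whether reads can be mapped uniquely in these regions was not tested.

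Spacing between neighbours could be described at these loci but not ordered. Successive calls 140 to 400 bp apart made up 46.8% of successive pairs at Pou5f1 with ethanol (22 of 47, Wilson interval 33.3 to 60.8%) and 37.5% with tamoxifen (18 of 48, 25.2 to 51.6%), against 27.4 and 28.2% over the autosomes. At Sox2 they were 20.9% (13.8 to 30.3%) and 24.5% (17.2 to 33.7%), at Nanog 29.3% (17.6 to 44.5%) and 34.3% (20.8 to 50.8%), and at Klf4 23.4% (15.3 to 33.95%) and 28.6% (20.0 to 39.0%). The ethanol interval of Pou5f1 was the one that excluded the autosomal share, at the locus with the densest calls. With neighbours limited to 300 bp the order at Pou5f1 turned, to 25.5% with ethanol (15.3 to 39.5%) and 35.4% with tamoxifen (23.4 to 49.6%), against 19.4 and 19.7% over the autosomes, and the tamoxifen interval was then the one that excluded it. The 22 ethanol neighbours of Pou5f1 had a median distance of 292.5 bp and the 18 tamoxifen neighbours one of 190 bp. At Nanog it was 270 and 222.5 bp, at Sox2 270 and 290 bp, at Klf4 207.5 and 255 bp, and over the autosomes 235 bp in each. The order of the treatments thus differed between loci.

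Regular runs, meaning 4 or more calls in a row with steps of 150 to 230 bp, occurred 3 times in the 4 windows. At Nanog a tamoxifen run of 4 calls from centre 122655786 to 122656301 had a mean spacing of 171.7 bp and included the dominant nucleosome, and 3 of its 4 calls were shared with ethanol. At Pou5f1 a tamoxifen run of 4 calls from 35652726 to 35653261 had a mean spacing of 178.3 bp, with 2 shared calls. At Sox2 an ethanol run of 4 calls from 34586426 to 34586931 had a mean spacing of 168.3 bp, with 1 shared call. No run was found at Klf4. The autosomes held 5024 such runs with ethanol and 5812 with tamoxifen, about 2.03 and 2.35 per Mb. That length includes long sequence without calls. Per 1000 autosomal calls there were 3.90 runs with ethanol and 4.11 with tamoxifen, where the 4 windows held 260 and 273 calls. With 3 runs in all, no rate was derived for the loci.

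Called widths at the loci were near those over the autosomes. The median width was 100 bp in 7 of the 8 sets of calls and 105 bp at Nanog with tamoxifen. Mean widths were 113.1 and 104.9 bp at Pou5f1 with ethanol and tamoxifen, 111.6 and 115.0 bp at Sox2, 119.0 and 118.9 bp at Nanog, and 112.7 and 109.9 bp at Klf4, against 112.3 bp over the autosomes in each library. Calls covered 13.6 and 12.9% of the Pou5f1 window, 10.0 and 8.56% of the Nanog window, 9.25 and 9.83% of the Klf4 window, and 7.90 and 9.11% of the Sox2 window. Over the autosomes they covered 5.86% with ethanol and 6.42% with tamoxifen, of a length that includes long sequence without calls.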

How the data were processed

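For each library the authors deposited a list of nucleosome calls, each with its chromosome, start, end, name and score. Per the submitters' processing notes, Bowtie 0.12.9 was used and the build is mm9. For the caller, its cutoffs and the meaning of the deposited score, no statement is given in the sources used here. Coordinates are printed unaltered from the lists, whose grid is 10 bp. A nucleosome under the authors' cutoffs is not listed, so a place with no call can still hold one, and the read depth is unknown.

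The titles of the samples gave the groups. A group is 1 library, so no test was made. Centres were counted per window. Background windows tile the 19 autosomes at the length of each locus, and the denser ones, from the median scaled count upward, were compared. Shares at a like mix of scores weight 20 score classes of the autosomal list. Functions were tested on simulated data. The 4 loci, windows and measures were chosen with earlier results of these data known. Named calls are the 3 of highest score and the 3 of highest score over 100 bp from the other list, named gaps are among the 3 longest, and all runs and all 10 kb stretches past 1.5-fold are given; common empty regions, pairs, sparse or dense stretches and single-library series were named after their values had been seen. A planned count of calls beside start sites of further pluripotency genes was not analysed here, since coordinates are not moved between builds. Alternatives changed score limits, list size, scaling, edges, distances and folds. Software was scipy 1.17.1, numpy 2.4.6, matplotlib 3.10.9 and pandas 2.3.3 under Python 3.11.15.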

Additional observations from a re-analysis of the deposited data

How the results depend on the processing

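The log2 ratio of calls stayed within its counting interval under all 5 alternatives at each locus. At Nanog it ran from -0.44 to -0.18, always negative. Elsewhere the sign was not stable: Pou5f1 was at 0.03 without scaling, Sox2 at -0.01 when scaled to its chromosome and -0.02 with extended windows, and Klf4 was above 0 under all 5. Of 108 alternative values in all, 82 stayed within the counting interval or, for counts, within 1.5 times.

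Of the 5 kb stretches compared, 6 of 21 at Sox2 (3 higher and 3 lower with tamoxifen), 3 of 8 at Nanog (1 and 2), 2 of 16 at Klf4 (1 and 1) and 1 of 7 at Pou5f1 (0 and 1) were past 1.5-fold, 23.1% over all 4 loci against 30.4% of autosomal 5 kb windows. At 2-fold Pou5f1 had 0. Gaps over 3000 bp in place of 2000 bp numbered 0 with ethanol and 2 with tamoxifen at Pou5f1, 10 and 9 at Sox2, 4 and 2 at Nanog, and 5 with tamoxifen at Klf4, fewer by construction. Within 10 bp, shares were 28.3% (ethanol) and 25.2% (tamoxifen) at Sox2 and 29.5 and 27.1% at Klf4, and within 40 bp 56.5 and 50.5% at Sox2 and 62.8 and 57.6% at Klf4. Ethanol calls from the median score upward were shared in 63.0% of cases at Pou5f1, 68.2% at Klf4, 50% at Sox2 and 33.3% at Nanog. Neighbours up to 300 bp made up 25.5% at Pou5f1 and 13.2% at Sox2 with ethanol, and 35.4% at Pou5f1, 14.7% at Sox2 and 17.9% at Klf4 with tamoxifen, so the order of the treatments at Pou5f1 turned, and among stronger tamoxifen calls at Sox2 neighbours were 15.3%. Narrower limits lower, and wider ones raise, these shares by construction; the cause was otherwise not tested. The Nanog ethanol share ran from 21.4% within 10 bp to 35.7% within 40 bp over the 5 alternatives run for it. The autosomal ethanol shares at these 2 limits were 30.6% and 57.0%. Within 10 bp the tamoxifen share was 25% at Nanog, against 27.9% over the autosomes. No interval was computed for Nanog at these limits. No paired analysis was possible because a group is 1 library.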
